A study of Mus musculus with 4 samples.

Results

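The zinc finger genes numbered *Zfp930* to *Zfp995* were examined in splenic CD4+ T cells of mice labelled wild type or *Satb1* conditional knockout. Members were all genes whose symbol is Zfp9 followed by 2 further digits, which gave 64 of the 55367 gene symbols counted. The family was selected on the counts of *Zfp990*, 1 of its members, which had reads in 1 genotype only in these same libraries. The question was whether that difference stood alone or ran through the genes around it. RNA from sorted peripheral CD4+ T cells of C57BL/6 mice was sequenced in 2 libraries labelled WT and 2 labelled *Satb1* conditional knockout (cKO). All 4 came from spleen and had no treatment. The series used *Satb1* F/F mice bearing ThPOK-cre and, for a second line, E8I-cre. The study ties its RNA-seq of CD4+ T cells to the Thpok-cre line, in which Cre acts from commitment to the CD4 lineage onward. The labels give neither the Cre of each cKO library nor the age or sex of the mice. The study's methods describe young adults of both sexes. The labels do not say whether replicates came from separate animals, whereas the study describes them as biological replicates. Errors of log2 fold changes below come from the fit over all tested genes and describe these libraries alone.

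Most members encode KRAB zinc finger proteins. Such a protein carries a row of C2H2 zinc fingers, which read a DNA sequence, and a KRAB domain, which recruits the corepressor TRIM28 (KAP1). TRIM28 in turn brings the histone methyltransferase SETDB1 and heterochromatin proteins, and many proteins of this class bind and silence retrotransposons. The genes arose by repeated local duplication, lie in clusters, and share long stretches of near-identical sequence. Individual roles are not known for most of the genes named here, and a role is given only where one is established.

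By GENCODE M21 on GRCm38 (mm10), 63 members were protein coding and 1, *Zfp939*, was a transcribed unprocessed pseudogene. They lay on 12 chromosomes, none of them X or Y, and fell into 25 groups when neighbours within 1 Mb were joined. The 3 largest groups held 16 members on chromosome 4, 10 on chromosome 17 and 10 on chromosome 2. A coding exon of 127 bases, the usual length of the exon for the KRAB A box, was present in 61 members. That exon is printed here for *Zfp990* and for the genes its result is read against, because it shows how close the copies are. Within the sequences, capitals mark each base that differs from *Zfp990* at the same position. All are reference bases of GENCODE M21 transcripts on GRCm38, written 5' to 3' in the direction of the gene.
Zfp990: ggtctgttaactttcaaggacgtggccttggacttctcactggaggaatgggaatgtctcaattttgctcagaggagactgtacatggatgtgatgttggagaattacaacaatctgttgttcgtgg
Zfp985: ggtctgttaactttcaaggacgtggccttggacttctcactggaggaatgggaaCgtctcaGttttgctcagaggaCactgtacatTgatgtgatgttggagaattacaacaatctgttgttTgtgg
Zfp984: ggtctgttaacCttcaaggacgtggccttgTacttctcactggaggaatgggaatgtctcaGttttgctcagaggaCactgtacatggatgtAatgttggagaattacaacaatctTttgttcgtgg
Zfp992: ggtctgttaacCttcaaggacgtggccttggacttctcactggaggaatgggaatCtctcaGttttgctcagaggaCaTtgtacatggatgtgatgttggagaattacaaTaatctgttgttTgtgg
Zfp991: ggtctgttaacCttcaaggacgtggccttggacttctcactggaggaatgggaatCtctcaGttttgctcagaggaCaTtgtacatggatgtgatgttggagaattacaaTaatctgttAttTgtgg
Gm13212: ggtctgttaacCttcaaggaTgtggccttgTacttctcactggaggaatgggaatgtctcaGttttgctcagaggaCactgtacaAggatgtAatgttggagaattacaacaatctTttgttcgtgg
Zfp981: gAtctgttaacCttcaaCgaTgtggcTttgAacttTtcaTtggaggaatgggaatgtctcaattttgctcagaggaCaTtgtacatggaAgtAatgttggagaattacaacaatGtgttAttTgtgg
Zfp948: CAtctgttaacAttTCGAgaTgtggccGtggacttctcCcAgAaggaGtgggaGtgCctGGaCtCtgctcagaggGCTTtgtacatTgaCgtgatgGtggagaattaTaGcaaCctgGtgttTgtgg
Zfp933: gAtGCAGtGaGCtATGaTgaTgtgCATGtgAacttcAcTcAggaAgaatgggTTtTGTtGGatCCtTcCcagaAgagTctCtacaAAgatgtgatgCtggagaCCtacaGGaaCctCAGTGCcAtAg

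The *Zfp990* exon lies at chr4:145534816-145534942 on the plus strand. Along the same chromosome, *Zfp985* (chr4:147581242-147581368, plus strand) differed from it at 5 of 127 bases and *Zfp984* (chr4:147757702-147757828, minus strand) at 6. *Zfp992* (chr4:146464404-146464530, plus strand) differed at 7 bases and *Zfp991* (chr4:147176747-147176873, plus strand) at 8. *Gm13212* (chr4:145620558-145620684, plus strand), a protein-coding zinc finger gene that is no member, also differed at 8. *Zfp981* (chr4:146535421-146535547, plus strand) differed at 15 bases. *Zfp948*, on chromosome 17 (chr17:21584780-21584906, plus strand), differed at 31, and across the 10 members of its cluster the number ran from 15 to 31. *Zfp933* (chr4:147828670-147828796, minus strand), which ends the chromosome 4 cluster, matched at only 59.1% of the bases, although it lies next to *Zfp984*. In 15 of the 16 members on chromosome 4 and all 10 of the chromosome 17 cluster the 127-base exon was followed directly by the last coding exon, an arrangement found in 26 members in all. *Zfp933* instead belonged to 28 members in which a coding exon of 61 bases comes next.

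The number of zinc fingers was read from the DNA that encodes the linker between fingers. The motif ACNGGNGANAANCC, searched on the coding strand only, was found 8 times in *Zfp990*, 10 times in *Zfp991* and *Zfp992*, 11 times in *Zfp984*, 4 times in *Zfp981* and 20 times in *Gm13212*. A linker with other letters is missed by this search. The median was 7 in the members with enough reads to be tested, 6 in those with reads under the filter and 8 in those with no read.

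The libraries held 4495902 to 6555699 reads assigned to genes. Levels are given as counts, or as CPM, the count scaled to a library of 1e+06 reads assigned to genes after TMM scaling of the library sizes. A floor of 3 counts corresponded to 0.457 to 0.669 CPM, and counting intervals and floors cover counting error only. *Satb1*, the targeted gene, had 5677 and 4390 counts in WT 1 and WT 2 and 4958 and 3986 in cKO 1 and cKO 2, a log2 fold change of -0.047 (SE 0.12, n = 2 libraries per genotype, edgeR quasi-likelihood adjusted p = 0.877). The count covers the whole gene, so it does not show whether the deleted exons were lost, and the groups are called libraries labelled WT and cKO for that reason. Summed markers of CD4 T cells ranged from 4903 to 5509 CPM and those of CD8 T cells were 47.5 and 58.2 CPM in WT against 34.2 and 26.7 in cKO. In the CD8 list *Cd8b1* fell (log2 fold change -0.91, SE 0.17, edgeR quasi-likelihood adjusted p = 0.020), whereas *Cd8a* had 35 and 29 counts in WT and 36 and 20 in cKO, with overlapping libraries. The summed myeloid list was 21.9 and 27.0 CPM in WT against 78.7 and 37.7 in cKO. In it *Lyz2* (14 and 12 counts against 119 and 42) and *S100a9* (0 and 1 against 51 and 24) were called higher by edgeR. *Csf1r* overlapped (116 and 89 counts against 201 and 89), and *Itgam* had 14 and 10 counts against 7 and 5. The summed NK cell list was 31.8 and 31.2 CPM in WT against 9.11 and 12.9 in cKO. Most of it was *Nkg7* (27.9 and 29.7 CPM against 6.45 and 12.5). *Klrb1c* (24 and 7 counts against 11 and 2) and *Ncr1* (2 and 0 against 3 and 0) overlapped in CPM. The summed B cell list, most of it *Ighm*, overlapped at 588 and 450 CPM in WT and 617 and 464 in cKO. Within it *Pax5* rose, from 5 and 4 counts to 53 and 15 (edgeR adjusted p = 0.041), while *Cd22* (30 and 17 against 48 and 50) did not pass. *Cd79a* (9 and 4 against 55 and 8) and *Ms4a1* (1 and 4 against 24 and 6) had too few counts to be tested. None of these listed markers was at 0 in all libraries, and their part in the member results was not tested. *Xist*, expressed from the inactive X chromosome, had 5447 and 4235 counts in the WT libraries against 9 and 6, whereas the Y-linked *Ddx3y* had no count in WT against 525 and 597. Sex and the genotype label therefore cannot be told apart in any difference below.

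Reads were assigned to 52 members, and 32 of these had enough counts to enter the test across genes. The other 20 had summed counts over the 4 libraries of 1 to 26. No read was assigned to 12 members in any library, namely *Zfp935*, *Zfp936*, *Zfp966*, *Zfp967*, *Zfp969*, *Zfp973*, *Zfp977*, *Zfp978*, *Zfp979*, *Zfp986*, *Zfp987* and *Zfp989*. Among the 311 other genes named Zfp and a number, 239 (76.8%) were tested, against 50% of the members. The tested members were low: per kilobase of exon their median level was 2.67 CPM (range 0.290 to 11.2) against 8.08 over all tested genes. Summed over members, the level was 405 and 485 CPM in WT 1 and WT 2 and 401 and 437 in cKO 1 and cKO 2. Without *Zfp990* the sums were 387, 463, 401 and 437 CPM. The genotypes overlapped with *Zfp990* and without it.

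*Zfp950* on chromosome 19 had the highest mean CPM over all 4 libraries, though not in WT alone, with 26.5 and 32.8 in WT 1 and WT 2 and 37.6 and 45.9 in cKO 1 and cKO 2. Next came *Zfp942* at 26.2, 41.5, 31.9 and 35.8 CPM in the same order. *Zfp945* stood at 32.4 and 43.3 CPM in WT and 24.5 and 29.6 in cKO. Of these 3 genes, *Zfp950* was higher in both cKO libraries than in either WT library, *Zfp945* was lower in both, and *Zfp942* overlapped. *Zfp954* on chromosome 7 followed at 28.8, 27.7, 28.3 and 22.6 CPM, and it led per kilobase of exon, at 11.2 CPM per kilobase. *Zfp943* stood at 19.5, 32.8, 24.3 and 24.3 CPM, and its WT pair spanned both cKO values. The remaining members of the top 8 by mean CPM were *Zfp961*, *Zfp952* and *Zfp949*. *Zfp961* on chromosome 8 had 22.5 and 21.4 CPM in WT and 26.9 and 28.6 in cKO. *Zfp952* had 22.7, 23.4, 23.7 and 24.6 CPM, and *Zfp949* had 18.0, 22.1, 18.2 and 23.3. Of these last 3, *Zfp961* was higher in both cKO libraries, *Zfp952* was higher by less than 1 CPM between the closest libraries, and *Zfp949* overlapped. The fitted log2 fold changes of the 6 genes other than *Zfp950* and *Zfp945* lay between -0.15 and 0.33. *Zfp932*, known to repress endogenous retroviruses, had 40, 45, 30 and 46 counts (6.09 CPM in WT 1, 5.69 in cKO 1 and 9.74 in cKO 2), higher per library size in replicate 2 of both genotypes.

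**Figure D1:**
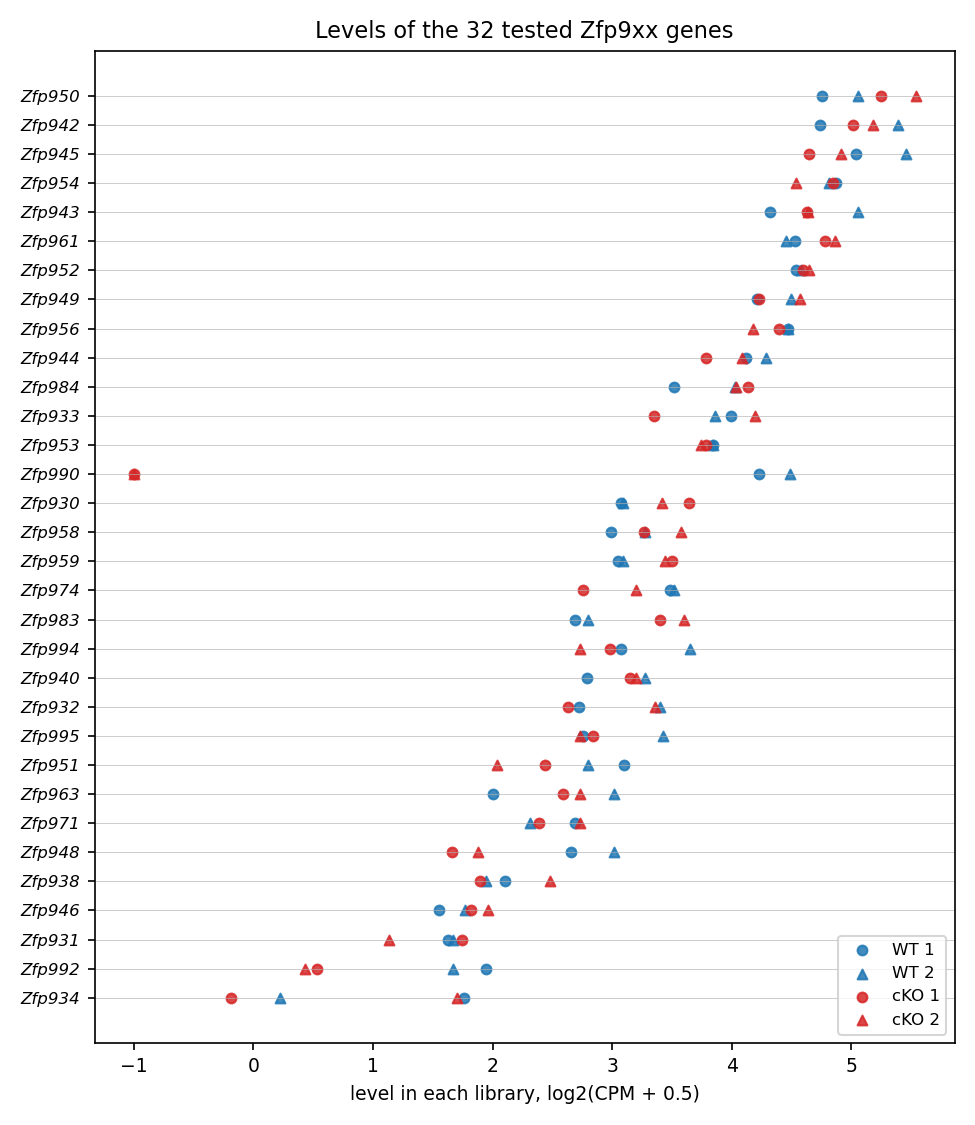
Level of each of the 32 tested members in each library on the scale log2(CPM + 0.5), ordered by mean CPM, with WT in blue and cKO in red. *Zfp990* is the single row in which the 2 cKO points lie at the left edge, at 0 CPM, while the WT points stand at 18.3 and 21.9 CPM.

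*Zfp990* (chr4:145510759-145539188, plus strand) was read 120 times in WT 1 and 98 times in WT 2, and no read was assigned to it in cKO 1 or in cKO 2. The WT levels were 18.3 and 21.9 CPM, and a count of 0 allows up to 0.569 CPM in cKO 1 and 0.635 in cKO 2. Set against that floor of 3 counts per library, the mean WT level of 20.1 CPM was at least 33.3-fold higher than in cKO. In WT its mean level lay just above that of *Zfp949* and under that of *Zfp956*, at 21.6 CPM. In RNA from a whole sorted population, fewer cells with the transcript and less of it per cell cannot be told apart. Since *Zfp990* was the gene that drew attention to the family, this difference is a description and no test is attached to it. The sex-linked genes, the summed myeloid and CD8 T cell markers, the summed NK cell list, carried by *Nkg7*, and the B cell gene *Pax5* also separated the genotypes. Their part in the difference was not tested.

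On-off was read on raw counts, as at most 3 counts in both libraries of 1 genotype and at least 10 in both of the other. Of 31 members that could have met this, 1 did, *Zfp990*. Over all genes, 46 of 12303 that could have met it did, or 0.374%, of which 24 were off in cKO (0.195%) and 22 off in WT. The rule that chose the family used this contrast, so nothing is read from the member count. With the floor set at 0 counts or the minimum at 20, *Zfp990* again was the single member. Without WT 1, *Zfp985* of the same cluster also met the rule, and without cKO 2 *Zfp964* did, which made 2 members each time.

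The nearest genes with reads did not share the pattern of *Zfp990*. *Gm13212*, 45978 bases beyond its distal end, had 27 and 30 counts in WT and 24 and 27 in cKO, a log2 fold change of -0.043 (SE 0.36, edgeR quasi-likelihood adjusted p = 0.969). The processed pseudogene *Gm13226*, which lies between them, had 13, 14, 6 and 12 counts, and the pseudogene *Smarca5-ps*, on the proximal side at 43339 bases, had 2, 0, 4 and 6. Further on the proximal side, the pseudogene *Gm13230*, at 59871 bases, had 0, 3, 0 and 0 counts, none above the floor of 3 counts. Beyond it, *Tnfrsf8*, which encodes CD30, had 23, 11, 18 and 19 counts. *Tnfrsf1b*, which encodes TNF receptor 2, had 691 and 416 counts in WT and 654 and 642 in cKO (log2 fold change 0.39, SE 0.11, adjusted p = 0.097 by the same test). Within 1 Mb of *Zfp990* there were 51 other genes whose whole span lay inside the window, of which 21 had reads and 8 were tested. *Zfp981*, whose near end lies 962839 bases away, runs past the window and is not among them. None of the 8 passed an adjusted p of 0.05 by edgeR or by DESeq2, and 3 had an unadjusted p under 0.05 in edgeR (*Vps13d*, *Tnfrsf1b* and *Zfp992*), against backgrounds over all tested genes of 4.3% and 19.1%. By the same rule of whole spans, none was called within 0.5 Mb (4 tested) or within 2 Mb (9 tested). *Vps13d*, whose near end lies 315754 bases away, runs past 0.5 Mb and is not among those 4. None was called over the span of the chromosome 4 members (6 tested).

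The 3 members nearest to *Zfp990* were at or near 0 in both genotypes. *Zfp980* had 1 count in WT 1 and 1 in cKO 1, and *Zfp986* and *Zfp987* had none. *Zfp990* is the most proximal member of its cluster, so no member lies on its other side. Of the 16 members on chromosome 4, which span 2.34 Mb, 5 had no read, 4 were tested and 7 had at least 5 counts in all.

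The 4 low-count copies further along the cluster were admitted by their WT counts, so their lower cKO counts are partly fixed by that choice and are given as values only. *Zfp992* had 22 and 12 counts in WT 1 and WT 2 and 5 and 4 in cKO 1 and cKO 2, a fitted log2 fold change of -1.74 (SE 0.47). On summed counts scaled to TMM-scaled library sizes, the cKO level of *Zfp992* was 29.3% of WT, with a 95% exact counting interval of 12.3% to 62.3%. *Zfp991* had 7 and 9 counts in WT and 0 and 3 in cKO, or 20.7% of WT (3.87% to 72.4%). *Zfp985* had 5 and 10 counts in WT and 1 and 0 in cKO, or 7.37% of WT (0.175% to 47.9%). *Zfp981* had 4 and 2 counts in WT and none in cKO, with both genotypes close to the floor, so no fold and no order are given.

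The members at the distal end had more reads. *Zfp984* had 72 and 71 counts in WT and 90 and 75 in cKO, a log2 fold change of 0.32 (SE 0.23), and its cKO levels in CPM lay just above the WT levels. *Zfp933* had 101, 63, 51 and 84 counts (-0.12, SE 0.28), with overlapping genotypes. *Zfp991*, *Zfp985* and *Zfp981* reached 5 counts only through the WT libraries, and *Zfp992* passed the filter of the test only through them, so no tally over the cluster is given. Libraries that do not overlap and are lower in cKO were found in 24.3% of all genes with at least 5 counts. The 5-count minimum and the choice of these genes for comparison were made after their values were seen, and no test of the cluster was made.

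**Figure D2:**
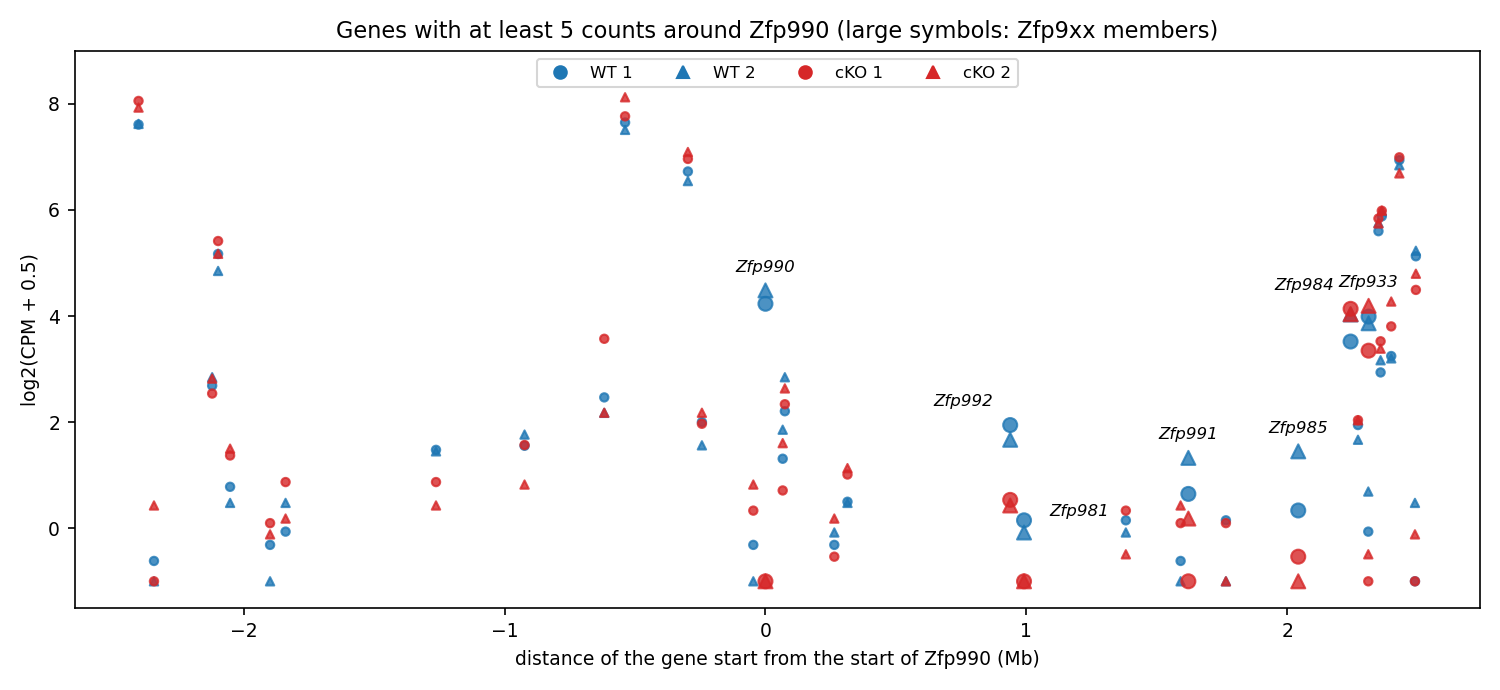
Levels, as log2(CPM + 0.5), of all genes with at least 5 counts in the region around *Zfp990*, against the distance of the gene start from the start of *Zfp990* in Mb, with WT in blue, cKO in red, and large symbols for members. The WT points of *Zfp990*, *Zfp992*, *Zfp991* and *Zfp985* stand above their cKO points, while *Zfp984*, *Zfp933* and the small symbols nearest to *Zfp990* on both sides show no such gap. *Zfp991* and *Zfp985* reached 5 counts, and *Zfp992* the filter of the test, only through the WT libraries. Their gaps are therefore partly fixed by that choice, and no test of the cluster was made.

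Copies with shared sequence can lose reads in counting. Libraries were read at 50 bases, and reads that fit more than 1 place, 11.3% to 13.5% of the reads per library, are not assigned to a gene. Of the 50-base windows in the transcripts of *Zfp990*, 29.1% were also found in another gene, 13.1% of its windows in *Zfp987*. The share was 15.9% for *Zfp985*, 40.0% for *Zfp981*, 43.0% for *Zfp992*, 54.5% for *Zfp984* and 82.2% for *Zfp991*. The part of shared sequence in the counts of *Zfp990* was not tested. The median share was 5.50% in tested members, 35.2% in members with reads under the filter and 85.5% in the 12 with no read. In the chromosome 2 cluster, where 4 of 10 members had no read and 2 were tested, it was 87.3%, and *Zfp967* and *Zfp969* shared all of their windows with other genes. A count of 0 in such a gene does not show that it was silent. Only transcripts were compared, so identity to sequence outside annotated exons was not measured.

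**Figure D3:**
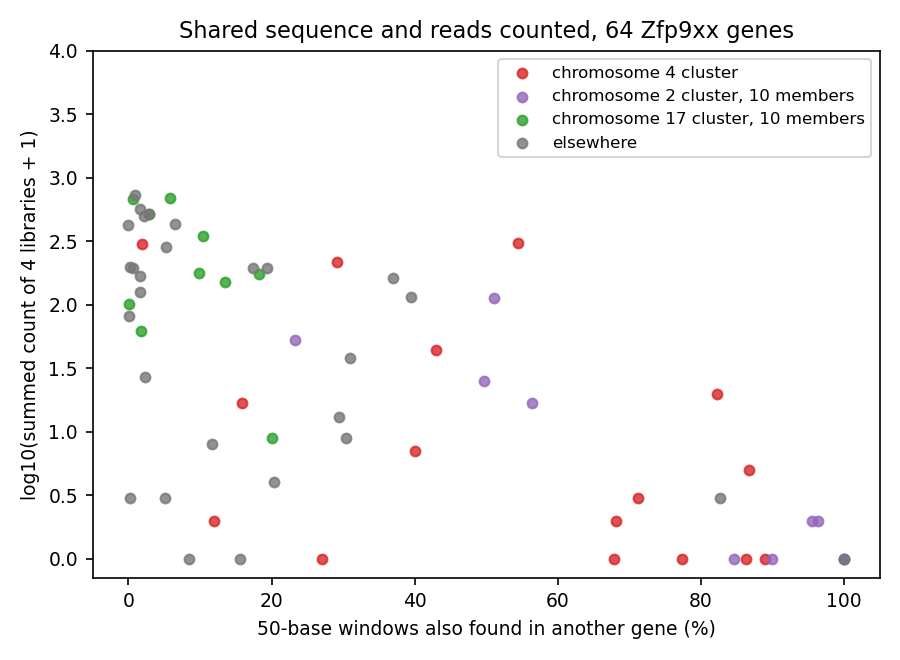
Share of the 50-base transcript windows of each of the 64 members that also occur in another gene, in percent, against log10 of the count summed over 4 libraries plus 1. Members with no read lie on the bottom line and are mostly at the right, while members of the chromosome 17 cluster in green mostly share little sequence and carry high counts.

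Of the 32 tested members, 1 was called between genotypes, *Zfp990*, where 533 of 12403 genes (4.3%) were called over the whole table by the edgeR quasi-likelihood test at an adjusted p under 0.05. As the family was put forward from this contrast, nothing is read from that count. Of the other 31, none was called by edgeR or DESeq2, and 6 had an unadjusted p under 0.05 in edgeR, beside 19.1% of all genes. Their fitted log2 fold changes reached 1.74 in size. Fold changes were below 0 in 16 of the 31 (51.6%) and in 50.2% of all tested genes, and the medians were -0.042 and -0.0015. With *Zfp990* the median was -0.060. Of the 31, 9 were lower in cKO and 8 higher with no overlap between libraries, with backgrounds of 25.4% and 24.8%. These shares are near the background of the whole table.

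The 4 tested members with the lowest fold changes were *Zfp990*, *Zfp992*, *Zfp948* and *Zfp951*. *Zfp951* on chromosome 5 had 53 and 29 counts in WT and 26 and 17 in cKO, or 8.07 and 6.47 CPM against 4.93 and 3.60, a log2 fold change of -0.77 (SE 0.32). The 4 with the highest were *Zfp983*, *Zfp950*, *Zfp930* and *Zfp959*. *Zfp950* differed by 0.50 (SE 0.17). *Zfp930* on chromosome 8 had 52 and 36 counts in WT (7.92 and 8.03 CPM) and 63 and 48 in cKO (0.47, SE 0.24), and *Zfp959* had 7.77 and 8.03 in WT and 10.8 and 10.4 in cKO (0.43, SE 0.24). None of the 7 other than *Zfp990* was called, and libraries that do not overlap are nearly fixed by choosing the extremes. *Zfp964*, under the filter, had 2 counts in each WT library and 18 and 4 in cKO, and its gap rests mainly on cKO 1. That library had the highest summed myeloid, B cell and CD4 T cell markers, and their part was not tested.

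**Figure D4:**
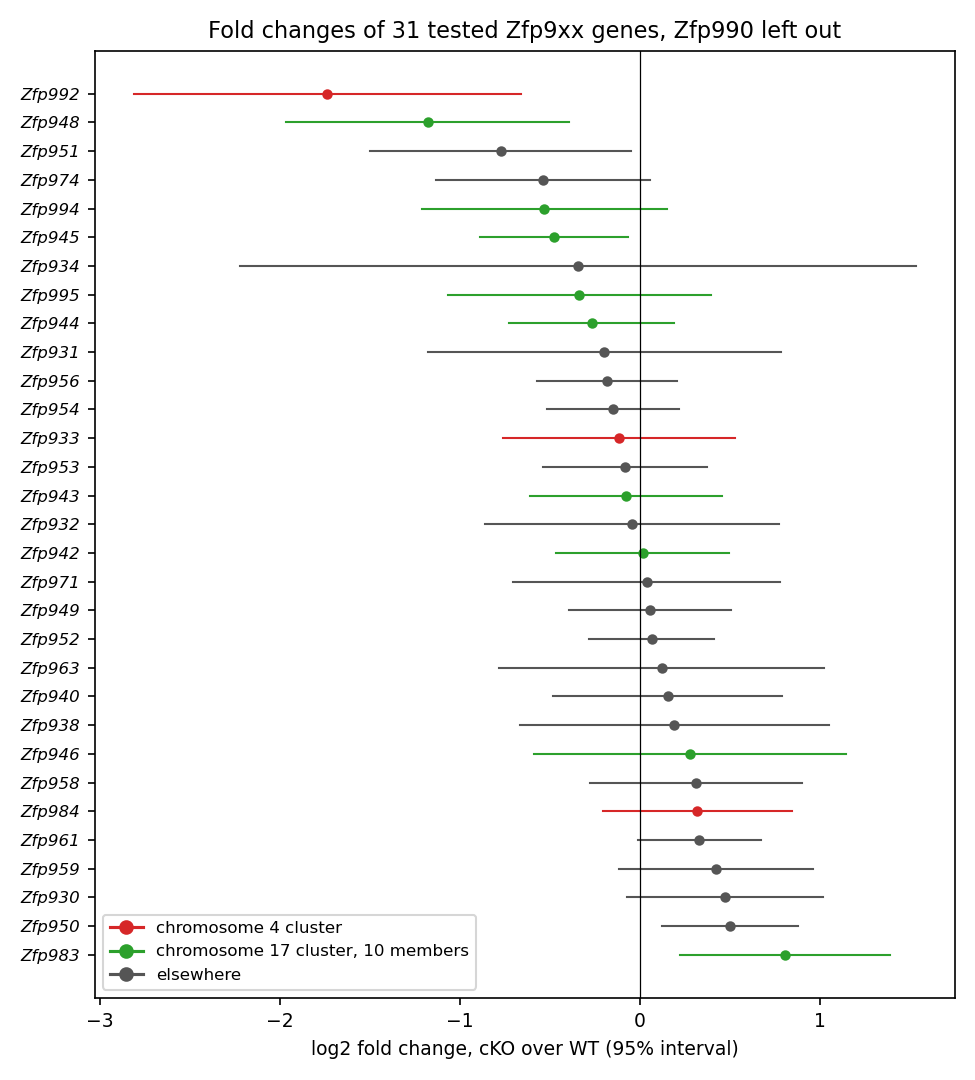
Fitted log2 fold change of cKO over WT with its 95% interval for the 31 tested members other than *Zfp990*, coloured by cluster. The values run from -1.74 for *Zfp992* to 0.81 for *Zfp983*, and green members of the chromosome 17 cluster lie on both sides of 0.

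The chromosome 17 cluster (21567008 to 22867134) is the closest comparison, since all 10 of its members share the exon arrangement of *Zfp990* and its median share of windows was only 7.81%. All of its members had reads and 9 were tested, of which 6 had fold changes below 0 and 3 above and none was called. *Zfp948*, its most proximal member, had 38 and 34 counts in WT and 14 and 15 in cKO, a log2 fold change of -1.18 (SE 0.35), and its summed cKO level was 44.5% of WT (27.9% to 69.4%). The next member along the chromosome, *Zfp983*, had 39 and 29 counts in WT and 53 and 55 in cKO, a fold change of 0.81 (SE 0.26), and its cKO level was 176% of WT (128% to 241%). Between *Zfp983* and the next member lies *Zfp760* (21707741 to 21725636), a gene outside the numbered set that was looked at after its values were seen. *Zfp760* rose from 31 and 29 counts in WT to 80 and 71 in cKO (log2 fold change 1.46, SE 0.25, edgeR adjusted p = 0.017). At the distal end, *Zfp945* had 213 and 194 counts in WT and 129 and 140 in cKO (-0.48, SE 0.18). Between them, *Zfp942* (172, 186, 168 and 169 counts) and *Zfp943* (128, 147, 128 and 115) were close to 0 in fold change, at 0.018 (SE 0.21) and -0.078 (SE 0.24). No member of this cluster was at 0 in both libraries of a genotype, the lowest being *Zfp947* with 2, 3, 3 and 0 counts.

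Promoters were compared by their CG dinucleotides, the sites of DNA methylation in mammals. RefSeq (GRCm38.p6) promoters of 300 bases, from 250 before to 50 after the start, matched 54 of the 64 members by symbol, and 49 of these started within 1 kb of the counted gene and were kept. *Zfp990*, *Zfp991* and *Zfp992* were among the 10 with no match, and *Zfp981* among the 5 left out. The motif CG reads the same on both strands. At least 10 CG were found in 14 of 28 tested members, 2 of 15 with reads under the filter and 0 of 6 with no read, and in 43.9% of all 27025 promoters. The promoters of *Zfp943*, which starts close to *Zfp942* on the opposite strand, and of *Zfp985* are printed as examples of a promoter with many CG and one with few, picked after their values were seen. Capitals mark each CG. They lie at chr17:21962309-21962608 and chr4:147553027-147553326, both on the plus strand.
Zfp943: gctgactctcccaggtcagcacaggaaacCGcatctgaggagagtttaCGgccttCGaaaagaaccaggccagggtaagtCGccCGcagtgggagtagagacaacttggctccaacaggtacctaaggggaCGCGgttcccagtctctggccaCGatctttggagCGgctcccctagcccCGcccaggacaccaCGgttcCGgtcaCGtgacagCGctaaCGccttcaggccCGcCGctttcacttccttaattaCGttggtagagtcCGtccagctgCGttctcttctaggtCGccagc
Zfp985: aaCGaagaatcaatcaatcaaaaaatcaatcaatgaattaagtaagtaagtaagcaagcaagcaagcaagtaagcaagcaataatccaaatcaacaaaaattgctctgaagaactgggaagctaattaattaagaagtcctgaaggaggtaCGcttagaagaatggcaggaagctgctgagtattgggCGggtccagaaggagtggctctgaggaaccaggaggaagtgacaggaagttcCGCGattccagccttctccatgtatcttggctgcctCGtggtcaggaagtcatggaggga

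The *Zfp943* promoter held 21 CG and that of *Zfp985* held 6, beside a median of 7 over all promoters and of 9.5, 5 and 5 in the 3 classes of members. Some genes departed from the class values: *Zfp945* held 7 CG, *Zfp949* 6 and *Zfp995* 3, although all 3 were tested. By contrast, *Zfp964* held 24 with reads under the filter. Whether the number of CG follows the level gene by gene was not tested. Methylation was not measured, and the counts of CG describe the reference sequence alone.

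Finally, the proteins through which KRAB zinc finger proteins act were examined from a list of 21 genes, 20 of which were tested, while *Atf7ip2* had no read. *Trim28*, the shared corepressor, had 239 and 234 CPM in WT and 229 and 199 in cKO (log2 fold change -0.14, SE 0.10, edgeR adjusted p = 0.508). *Setdb1*, which methylates histone H3 at lysine 9, had a fold change of 0.087 (SE 0.12, edgeR adjusted p = 0.749). One listed gene fell and 1 rose by the edgeR test, of 20, beside 1.95% and 2.35% of all genes. *Uhrf1*, which brings DNMT1 to newly replicated DNA, fell from 274 and 170 counts (41.7 and 37.9 CPM) in WT to 77 and 114 (14.6 and 24.1 CPM) in cKO (log2 fold change -1.05, SE 0.22, edgeR adjusted p = 0.031), and without WT 2 the call was lost (adjusted p = 0.0837) at a fold change of -1.12. *Resf1*, which binds SETDB1 and aids the silencing of retroelements, rose from 1332 and 994 counts in WT to 1906 and 1982 in cKO (0.88, SE 0.11, edgeR adjusted p = 0.004). The other 18 were not called, with log2 fold changes between -0.17 and 0.23. *Dnmt1* was at -0.17 (SE 0.10, edgeR adjusted p = 0.416) and *Zfp809*, a KRAB zinc finger protein that silences murine leukaemia proviruses, at 0.23 (SE 0.15, edgeR adjusted p = 0.434).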

How the data were processed

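RNA of 4 libraries was compared, 2 labelled WT and 2 labelled *Satb1* conditional knockout. Per the submitters' processing notes, the authors aligned 50-base reads to mm10 with HISAT2 (version 2.1.0) and counted them with HTSeq (version 0.11.1; the study's methods name an adjacent release), and deposited the raw read count of each gene symbol. The annotation and strand setting are not given in the sources used here. HTSeq summary lines, 66.8% to 70.5% of all reads, were left out. Genes were placed with GENCODE M21.

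Genes passing filterByExpr of edgeR 4.0.16 (minimum count 10) in R 4.3.3 were compared by the quasi-likelihood F test of edgeR, two-sided, on TMM factors, without covariates and with Benjamini-Hochberg adjustment over all 12403 genes. CPM uses TMM-scaled gene totals, and 95% intervals of count ratios are exact binomial. Alternatives were DESeq2 1.42.0, RLE factors, other filters, a replicate block, leaving out each library, and other windows. An exact permutation test of 2 against 2 libraries cannot go below p = 0.333. Libraries with the same replicate number hardly deviated together (correlation of deviations 0.0643). With 2 libraries per genotype this cannot settle whether they are paired.

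Named genes were *Satb1*, *Zfp990*, on-off and called members, the 8 highest by mean CPM, the 4 largest differences in each direction, the 3 members nearest *Zfp990*, and *Trim28*, *Setdb1* and called genes of the corepressor list. Other genes were named after their values were seen. The members and lists were chosen with earlier results of these data known.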

Additional observations from a re-analysis of the deposited data

How the results depend on the processing

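With DESeq2, RLE factors or a minimum of 1 CPM in 2 libraries, the counts of called genes, called members, called neighbours and called corepressor genes stayed within 1.5 times. Without a low-count filter 1367 genes were called in place of 533, members called were 4 (*Zfp948*, *Zfp964*, *Zfp990* and *Zfp992*) in place of 1, and neighbours of *Zfp990* within 1 Mb were 2 (*Vps13d* and *Zfp992*) in place of 0. With a replicate block these counts were 1165, 2 (*Zfp950* and *Zfp990*) and 1 (*Tnfrsf1b*), and the corepressor count did not change. Whether the replicate numbers pair the libraries is not known. Leaving out each library in turn gave 180 to 1783 called genes, 180 without WT 2, 1469 without cKO 1 and 1783 without cKO 2. Over the same fits members called ran from 1 to 3, neighbours from 0 to 2, corepressor genes from 1 to 2, on-off members from 1 to 2, and the member median log2 fold change from -0.10 to 0.11. Among the members, *Zfp950* was added without cKO 1, and *Zfp945* and *Zfp964* without cKO 2. *Zfp985* met the on-off rule without WT 1 and *Zfp964* without cKO 2. The sign of small fold changes turned when a library was left out: *Satb1* ran from -0.13 to 0.042, *Setdb1* from -0.0093 to 0.20, *Zfp942* from -0.29 to 0.36, *Zfp943* from -0.43 to 0.31, *Zfp949* from -0.12 to 0.23 and *Zfp954* from -0.32 to 0.0014. The cause was not tested. With 1 library left in a genotype, it is assumed to vary like the other pair. At this depth a member under 3 counts per library cannot be ordered against another.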
